A study of Mus musculus with 6 samples.

Results

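The nuclear genes of the mitochondrial respiratory chain differed little between bone marrow stromal cells of 18-month-old and of 3-month-old mice. They were chosen by gene symbol from the platform annotation, taking the Nduf genes of complex I, the Sdh genes of complex II, the Uqcr genes of complex III, the nuclear Cox genes of complex IV and the Atp5 genes of complex V. This gave 85 genes out of 30702 with a probe set of a single symbol, namely 35 of complex I, 4 of complex II, 8 of complex III, 18 of complex IV and 20 of complex V. Of the 85, 83 passed the filter on dim genes and were tested, and Cox7b2 and Cox8b did not pass it. Some members are no structural subunit, whatever the symbol implies. Atp5c1-ps, Atp5l-ps1 and Atp5l2 are pseudogenes in RefSeq, Atp5sl is now named Dmac2, and Cox7a2l is a factor that joins complexes III and IV.

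The respiratory chain passes electrons from NADH and succinate to oxygen and stores the energy as a proton gradient over the inner mitochondrial membrane. Complex I takes electrons from NADH, complex II takes them from succinate, complex III hands them from ubiquinone to cytochrome c, complex IV passes them to oxygen, and complex V uses the gradient to make ATP. Most subunits are encoded in the nucleus and imported, while a few core subunits of complexes I, III, IV and V are encoded by mitochondrial DNA. Marrow stromal cells are known to rely largely on glycolysis while they expand and to use respiration more as they differentiate into bone or fat cells.

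The study measured gene expression on 6 Affymetrix arrays, 3 of cells from aged mice of 18 months and 3 of cells from young mice of 3 months. All cells came from crushed femurs digested with collagenase, were sorted for Sca-1 and CD29 and against CD45 and CD11b, and were grown in flasks, with first-passage cells seeded again, so each array reads a cultured population. The sources used here give neither strain nor sex. The arrays are called biological replicates with no word on separate animals, and p-values cover the spread among the arrays alone, which may be technical. The values are log2 expression values, with aged minus young differences tested by limma over all genes and Benjamini-Hochberg adjustment, and errors are standard deviations of 3 arrays unless a standard error (SE) is named.

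The arrays were alike in overall brightness, with medians from 5.39 to 5.44 over all transcript clusters. Among the negative control probe sets 95% had a mean below 7.61, and a gene below that value is called dim here and gets no fold change. Of the 83 tested genes 71 lay above this limit in both ages. Control probes themselves shifted between the ages, by a median of -0.26 for negative controls, by a median of -0.15 for positive controls, and by 0.01 to 0.29 for the antigenomic probes, a background set designed to match nothing in the genome. No source states which arrays were cultured or hybridised together, and an effect of batch and one of age cannot be told apart. The stromal markers Col1a1, Pdgfrb, Vcam1 and Itgb1 were above the limit on every array, while Thy1, Eng and Nt5e were dim in both ages, apart from Nt5e on a single young array. Markers of the population moved with age: Vcam1 was 2.01-fold, Col1a1 1.73-fold and Pdgfrb 1.15-fold higher in aged cells, Itgb1 was lower at 93.4% of the young level, and the dim Nt5e was called lower. Of 5 smooth muscle markers 3 were higher, among them Tagln at 1.21-fold and Acta2 at 1.15-fold, and 1 was lower, and their mean was 8.56 on each aged array and ran from 8.43 to 8.49 in young cells. Of the 4 endothelial markers, all dim, Kdr was called higher and Tek lower. All 5 macrophage markers were dim, and of the 3 tested Cd14 was called higher (difference 0.35, adjusted p = 0.000808) and 0 lower. The part of these shifts in the values of the chain genes was not tested. The markers of the cells sorted against were dim, with Ptprc (CD45) at 3.62 in aged and 3.65 in young cells and Itgam (CD11b) at 5.24 in aged and 5.26 in young cells.

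Across the whole chain 11 genes were higher and 11 were lower in aged cells at an adjusted p under 0.05, and 61 did not pass. The 22 calls are 26.5% of the 83 genes, against 40.6% of all 20187 genes tested (18.4% higher and 22.1% lower). Among the 9440 genes above the negative control range 57.7% were called (21.4% higher and 36.2% lower), and of the 71 chain genes above it 10 were higher and 11 lower. Aged and young arrays were fully separate for 39 of the 83 genes, against 51.3% of all genes, and for each of the 22 called ones. The differences were small: the median size was 0.08 on the log2 scale, against 0.12 over all genes tested and 0.16 over genes above the negative control range. A difference above 0.3 in size was found in 3 of the 83 genes, against 19.3% of all genes and 24.8% of those above the negative control range. Of the 22 called genes 19 differed by less than the largest shift of the antigenomic background probes.

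The median difference over the 83 genes was -0.01, which turned to 0.01 after median centring, beside 0.01 over all genes tested. When the difference was tested against a minimum of 0.3, 0 chain genes passed (limma's treat, with 0 at an unadjusted p under 0.05), against 9.83% of all genes. The median SE of a difference was 0.04. Single arrays moved the counts: without young array 1, 18 genes were higher and 11 lower, and without young array 3, 10 were higher and 17 lower. Without young array 2, 6 were higher and 7 lower, without aged array 1, 6 and 7, without aged array 2, 7 and 8, and without aged array 3, 6 and 9. In all 16 alternative fits without a minimum difference 10 of the 22 calls were kept, 5 higher and 5 lower.

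**Figure D1:**
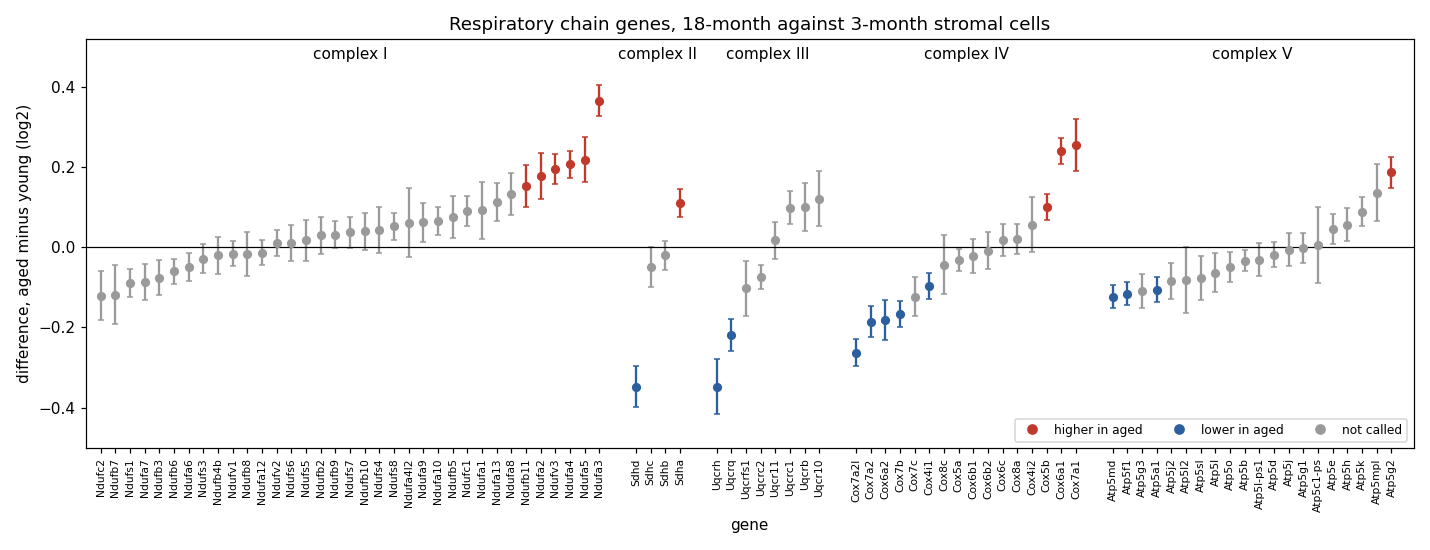
Difference between aged and young cells (log2, aged minus young) for each of the 83 tested respiratory chain genes, grouped by complex and ordered by difference; bars are the standard error of the fit, and colour shows the call at an adjusted p under 0.05. Complex I holds 6 genes that were higher (17.1%, beside 18.4% over all genes tested) and 0 that were lower. Over all complexes 3 genes, Ndufa3, Sdhd and Uqcrh, lie beyond 0.3 in either direction.

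**Figure D2:**
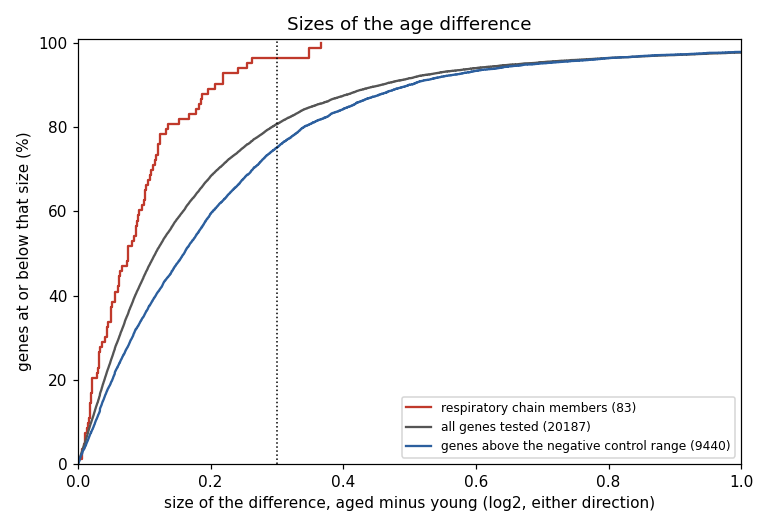
Cumulative share of genes (percent) whose age difference is at or below the size on the x axis (log2, sign dropped), for the 83 chain genes, all 20187 genes tested and the 9440 genes above the negative control range; the dotted line marks 0.3, and the axis ends at 1. The curve of the chain genes lies to the left of both others, with its highest size at 0.37.

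The promoters of the genes that moved most are shown because chain genes are textbook targets of the transcription factors NRF1 and GABP, of which GABP binds an ETS motif. The 2 largest rises and the 2 largest falls among called genes above the negative control range were taken, with sequence from RefSeq on the plus or minus strand of GRCm38.p6. Each sequence ends at the base before the transcript start and runs back 250 bases, or to the start of a neighbouring gene that is read in the opposite direction. Capitals mark an ETS motif, CCGGAAG, or an NRF1 motif, GCGC followed by any base and then TGCGC, both searched on either strand.
Ndufa3, higher in aged cells, chr7:3617123-3617372, plus strand: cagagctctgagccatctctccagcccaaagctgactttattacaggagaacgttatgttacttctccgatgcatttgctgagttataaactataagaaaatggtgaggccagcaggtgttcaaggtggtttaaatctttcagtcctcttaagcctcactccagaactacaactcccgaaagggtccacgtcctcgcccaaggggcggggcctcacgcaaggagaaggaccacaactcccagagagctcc
Cox6a1, higher in aged cells, chr5:115348959-115349208, minus strand: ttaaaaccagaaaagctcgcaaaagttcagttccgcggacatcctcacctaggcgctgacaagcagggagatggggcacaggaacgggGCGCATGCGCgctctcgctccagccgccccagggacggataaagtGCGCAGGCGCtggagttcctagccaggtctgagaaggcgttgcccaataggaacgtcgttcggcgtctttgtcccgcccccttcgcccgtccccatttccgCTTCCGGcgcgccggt
Sdhd, lower in aged cells, chr9:50603850-50603900, minus strand: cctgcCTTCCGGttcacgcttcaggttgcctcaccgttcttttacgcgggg
Uqcrh, lower in aged cells, chr4:116075071-116075268, minus strand: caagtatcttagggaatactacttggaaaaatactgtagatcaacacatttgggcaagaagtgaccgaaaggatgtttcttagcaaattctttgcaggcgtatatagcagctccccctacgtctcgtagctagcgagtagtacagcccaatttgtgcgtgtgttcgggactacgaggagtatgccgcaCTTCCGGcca

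The Cox6a1 promoter holds 2 matches to the NRF1 motif and 1 ETS match, and the ETS match begins 16 bases before the start. In Sdhd an ETS match begins 46 bases before the start, and an NRF1 match at 79 bases lies beyond the printed stretch, while in Uqcrh the ETS match begins 10 bases before it. The Ndufa3 window holds neither set of letters. A promoter was listed for 67 of the 85 genes. Over the full 250 bases an ETS motif was found in 11 of the 67 (16.4%), against 7.05% of 27025 promoters, and an NRF1 motif in 10 of the 67 (14.9%), against 3.86% of promoters. Among called genes with a promoter, an ETS motif was found in 1 of 10 that were higher and in 2 of 7 that were lower, and an NRF1 motif in 4 of 10 that were higher and in 1 of 7 that were lower. These are descriptions of letters in a window, and binding was not measured.

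In complex I, the NADH dehydrogenase, 6 of 35 genes were higher in aged cells and 0 were lower (limma, with 1 lower at an unadjusted p under 0.05 and 0 called without moderation). The 6 are 17.1% of the 35, beside 18.4% higher and 22.1% lower over all genes tested. Among genes above the negative control range 21.4% were higher and 36.2% lower. The median difference was 0.04. Ndufa3, an accessory subunit of the membrane arm, had the largest change of the chain. It read 8.12, 8.11 and 8.15 in aged cells, against 7.76, 7.72 and 7.80 in young cells. The groups lay well apart, and the gene was 1.29-fold higher in aged cells (adjusted p = 8.9e-05). It kept its call in every fit without a minimum difference.

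Ndufa5, an accessory subunit of the arm that faces the matrix, read 8.25, 8.19 and 8.31 in aged cells, against a lowest of 7.95 and a highest of 8.14 in young cells. Its groups lay close together without overlap, and it rose 1.16-fold (adjusted p = 0.0139), a call that was lost without moderation and without aged array 3 or young array 2. Ndufa4 was first described as a part of complex I and is now placed in complex IV. It read 10.47, 10.42 and 10.49 in aged cells, against 10.27, 10.29 and 10.20 in young cells, and rose 1.15-fold (adjusted p = 0.00126). Its dim paralog Ndufa4l2, which is induced by low oxygen in many cells, read 5.95, 5.92 and 5.84 in aged cells, against 5.65, 5.91 and 5.97 in young cells, with overlapping groups.

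Ndufv3, an accessory subunit of the NADH-oxidising module, read 10.60, 10.55 and 10.55 in aged cells, against 10.37, 10.43 and 10.31 in young cells. It rose 1.15-fold (adjusted p = 0.00258) and kept its call in every fit without a minimum difference. Ndufa2, an accessory subunit of the same module, and Ndufb11, an X-linked accessory subunit of the membrane arm, rose 1.13-fold and 1.11-fold (adjusted p = 0.0362 and 0.0428). Both calls were lost in several fits, among them those without any single aged array and without moderation.

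The nuclear members of the catalytic core of complex I measured here were Ndufs1, Ndufs3, Ndufs7, Ndufs8, Ndufv1 and Ndufv2, which carry the flavin and the iron-sulphur clusters or line their path. Their differences ran from -0.09 to 0.05, and 0 of 6 were called (limma, with 1 at an unadjusted p under 0.05 and 0 called without moderation). Of the 29 accessory genes 6 were called (20.7%), beside 40.6% of all genes tested. The 29 are grouped by symbol and count Ndufa4, called higher, and Ndufa4l2. With these left out, 5 of 33 complex I genes were called. Whether core and accessory genes differ was not tested. The accessory gene Ndufb9 read 12.27, 12.24 and 12.32 in aged cells, against 12.29, 12.20 and 12.23 in young cells, and the core gene Ndufs8 read 10.84, 10.84 and 10.87 in aged cells, against 10.87, 10.76 and 10.77 in young cells. For both genes the groups overlapped.

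The 4 genes of complex II, succinate dehydrogenase, did not move together. This enzyme also acts in the citrate cycle and is the complex that holds no subunit encoded by mitochondrial DNA. Sdhd, a membrane anchor that helps bind ubiquinone, read 9.79, 9.82 and 9.86 in aged cells, against 10.29, 10.15 and 10.08 in young cells. Every aged array lay below every young one, and the level in aged cells was 78.5% of that in young cells (adjusted p = 0.000593). Sdha, the flavoprotein that oxidises succinate, read 9.29, 9.28 and 9.30 in aged cells, against 9.21, 9.21 and 9.12 in young cells, and rose 1.08-fold (adjusted p = 0.0342), a call lost without any single aged array and after median centring. Sdhb, which carries the iron-sulphur clusters, had a mean of 9.72 ± 0.04 in aged and 9.74 ± 0.04 in young cells, and the other anchor, Sdhc, had 8.88 ± 0.01 in aged and 8.93 ± 0.10 in young cells (SD, n = 3 each). Their groups overlapped, with differences of -0.02 for Sdhb and -0.05 for Sdhc.

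The start of Sdhd lies 52 bases from that of Timm8b, a chaperone gene of mitochondrial import that is read in the opposite direction. Timm8b was also lower in aged cells, by a difference of -0.13 (adjusted p = 0.0337), a call lost after median centring and in several other fits, among them those without aged array 1 or 2. The fall of Sdhd kept its call in every fit without a minimum difference.

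In complex III, the cytochrome bc1 complex, 2 of 8 genes were lower and 0 were higher (limma, with 1 higher at an unadjusted p under 0.05 and 0 called without moderation). The 2 are 25% of the 8, beside 22.1% lower over all genes tested and 36.2% among genes above the negative control range. Uqcrh, the hinge protein that helps cytochrome c1 meet cytochrome c, read 8.54, 8.53 and 8.66 in aged cells, against 9.07, 8.91 and 8.79 in young cells. Its groups did not overlap, and it fell to 78.6% of the young level (adjusted p = 0.0034). The call was lost without moderation, at an adjusted p of 0.0515. Uqcrq, a small subunit of the membrane part, read 10.16, 10.15 and 10.18 in aged cells, against 10.45, 10.39 and 10.30 in young cells, and fell to 86.0% of the young level (adjusted p = 0.00232).

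The other 6 genes of complex III did not pass, with differences from -0.10 in Uqcrfs1 to 0.12 in Uqcr10, sizes that reach those of some called genes of other complexes. Uqcrc2, a core protein, read 9.95, 9.97 and 9.95 in aged cells, against 10.03, 10.07 and 10.00 in young cells, with every aged array below every young one (adjusted p = 0.0857). Uqcrc1, the other core protein, had 10.49 ± 0.02 in aged and 10.39 ± 0.08 in young cells, and Uqcrb, a small subunit, had 11.49 ± 0.03 in aged and 11.39 ± 0.13 in young cells (SD, n = 3 each). The groups of Uqcrc1 and of Uqcrb overlapped. Uqcrfs1, the Rieske iron-sulphur protein, was dim in both ages. Cyc1, the cytochrome c1 gene, lies outside the symbol rule and had 9.78 ± 0.02 in aged and 9.93 ± 0.10 in young cells (SD, n = 3 each; adjusted p = 0.0462), a call lost in most of the alternative fits.

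In complex IV, cytochrome c oxidase, 3 of 16 tested genes were higher and 5 lower. These 8 are 50% of the 16, between the 40.6% called over all genes and the 57.7% called among genes above the negative control range. Cox7a2l, which links complex III to complex IV in supercomplexes, read 10.17, 10.18 and 10.21 in aged cells, against 10.51, 10.41 and 10.42 in young cells. It fell to 83.3% of the young level with well separated groups (adjusted p = 0.0003). Cox7a2, the form of subunit VIIa found in most tissues, read 8.74, 8.78 and 8.77 in aged cells, against 8.97, 8.99 and 8.88 in young cells, and fell to 87.9% (adjusted p = 0.00459). Cox7a1, the form of heart and skeletal muscle, was dim and went the other way, with 6.61, 6.58 and 6.50 in aged cells, against 6.20, 6.34 and 6.38 in young cells (difference 0.25, adjusted p = 0.0119). That call was lost without aged array 1.

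Cox6a1, the common form of subunit VIa, read 12.09, 12.07 and 12.17 in aged cells, against 11.89, 11.86 and 11.86 in young cells, and rose 1.18-fold (adjusted p = 0.000333). Cox6a2, the muscle form, read 8.55, 8.63 and 8.58 in aged cells, against 8.86, 8.76 and 8.68 in young cells, and fell to 88.2% of the young level (adjusted p = 0.0166). That call was lost after median centring and without aged array 1 or 3 or young array 2. Beside these muscle forms, 9 of 10 markers of skeletal and heart muscle were dim in both ages, 0 of 10 were higher and 1, Tnnt2, was lower, and the mean of the list on an array ran from 6.58 to 6.61 in aged cells and from 6.48 to 6.66 in young cells. The marker above the limit was Acta1, with 7.98 ± 0.01 in aged and 7.82 ± 0.14 in young cells (SD, n = 3 each; adjusted p = 0.0855). The part of muscle cells in these values was not tested. In a bulk sample fewer cells of a type and less RNA per cell cannot be told apart.

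Cox7b, a small X-linked subunit, read 9.14, 9.13 and 9.10 in aged cells, against 9.27, 9.27 and 9.33 in young cells, and fell to 89.1% of the young level (adjusted p = 0.0032), a call kept in every fit without a minimum difference. Cox4i1, the common form of subunit IV, read 8.85, 8.87 and 8.90 in aged cells, against 8.97, 8.99 and 8.95 in young cells (adjusted p = 0.0457). Its change to 93.6% of the young level was lost after median centring and without any single aged array. Cox5b, which binds zinc on the matrix side, rose 1.07-fold (adjusted p = 0.0358), also lost without any single aged array.

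The other isoforms of complex IV subunits given here overlapped between the ages, with the exception of Cox7b2. Cox8a had 11.74 ± 0.05 in aged and 11.72 ± 0.06 in young cells, and Cox6b1 had 10.22 ± 0.01 in aged and 10.24 ± 0.08 in young cells (SD, n = 3 each). Cox4i2, the form of lung and of low oxygen, was dim, with 6.67, 6.72 and 6.75 in aged cells, against 6.52, 6.68 and 6.77 in young cells. The testis forms Cox6b2 and Cox8c were dim too, at 6.86 in aged and 6.87 in young cells for Cox6b2 and at 6.04 in aged and 6.08 in young cells for Cox8c. Cox7b2 and Cox8b, left out of the test, read 4.13 ± 0.05 in aged and 4.29 ± 0.08 in young cells, and 5.34 ± 0.24 in aged and 5.30 ± 0.27 in young cells (SD, n = 3 each).

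**Figure D3:**
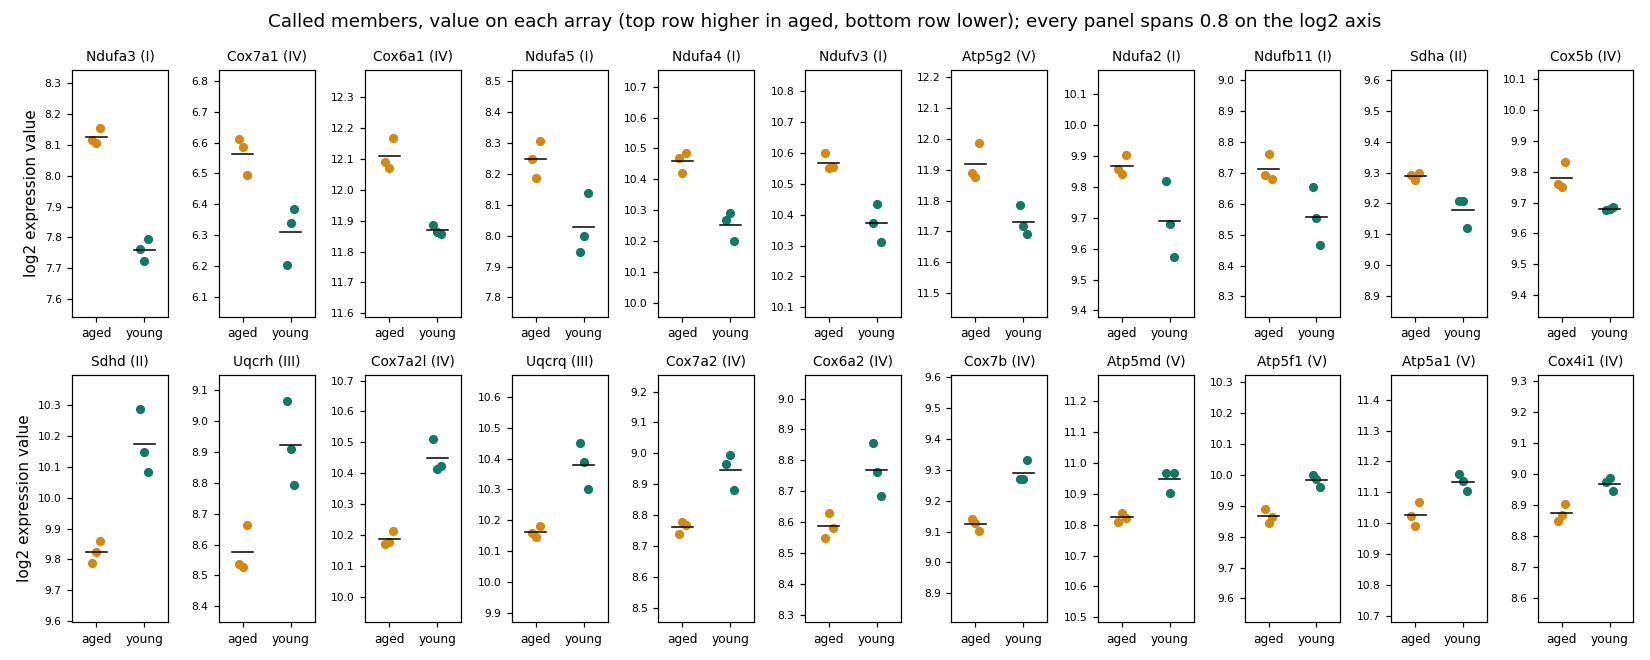
Log2 expression value of the 22 called chain genes on each of the 3 aged arrays (left) and 3 young arrays (right) of each panel, with the mean as a line and the complex in brackets; each panel spans 0.8 on the log2 axis. The groups do not overlap in any of the 22 panels, which the choice by call favours, beside 51.3% of all genes tested. The widest gaps are those of Ndufa3 in the top row and of Sdhd and Cox7a2l in the bottom row.

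Complex V, the ATP synthase, had 1 gene higher and 3 lower of 20. These calls are 20% of its genes, beside 40.6% of all genes tested and 57.7% of genes above the negative control range. The 3 genes Atp5g1, Atp5g2 and Atp5g3 encode the same mature ring protein behind different import signals. Atp5g2 read 11.89, 11.88 and 11.99 in aged cells, against 11.79, 11.72 and 11.69 in young cells, and rose 1.14-fold (adjusted p = 0.00461). A second probe set of the gene, whose name places it on chromosome 7 while RefSeq places Atp5g2 on chromosome 15, differed by 0.19 as well. Atp5g1 had 10.20 ± 0.04 in aged and 10.21 ± 0.05 in young cells, and Atp5g3 had 8.74 ± 0.03 in aged and 8.85 ± 0.07 in young cells (SD, n = 3 each; adjusted p = 0.972 and 0.0704). Retrocopies of these genes are common in the genome, so probe sets may read more than the named gene.

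The lower genes of complex V were Atp5md, Atp5f1 and Atp5a1. Atp5md, a small subunit of the membrane part that helps pair the synthases, read 10.81, 10.84 and 10.82 in aged cells, against 10.97, 10.90 and 10.97 in young cells, and fell to 91.8% of the young level (adjusted p = 0.00893), a call lost without aged array 1. Atp5f1, subunit b of the stalk that holds the head still, read 9.89, 9.84 and 9.86 in aged cells, against 10.00, 9.99 and 9.96 in young cells, and fell to 92.3% (adjusted p = 0.011). Atp5a1, the alpha subunit of the catalytic head, fell to 92.9% (adjusted p = 0.0246), lost after both quantile normalization and median centring. The falls of Atp5f1 and Atp5a1 were also lost without aged array 2 or young array 2, and that of Atp5f1 after median centring. The catalytic beta subunit Atp5b read 11.18, 11.16 and 11.15 in aged cells, against 11.20, 11.18 and 11.20 in young cells, with a difference of -0.03 that did not pass (adjusted p = 0.359).

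Of the 85 genes only Atp5l had its brightest probe set named for another chromosome than RefSeq gives, chromosome 5 in place of 9. That probe set differed by -0.06, while the 2 dim probe sets named for chromosome 9 differed by -0.21 and 0.07, so the value of Atp5l is uncertain. The pseudogenes Atp5l-ps1 and Atp5l2 were above the negative control range and did not pass.

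The tested genes of each complex, grouped by symbol, were averaged on each array. On this grouping complex I was higher on each aged array than on any young array. It stood at 8.97, 8.96 and 8.98 in aged cells, against 8.95, 8.93 and 8.89 in young cells. Complex IV was lower on each aged array, at 8.83, 8.83 and 8.84 in aged cells, against 8.86, 8.86 and 8.87 in young cells. These shifts were 0.05 for complex I and -0.03 for complex IV, beside a shift of 0.03 in the mean over all genes tested. Both separations depend on the grouping by symbol. With Ndufa4 and Ndufa4l2 moved to complex IV and Cox7a2l left out, aged and young arrays overlap in both complexes. The median difference is then 0.03 for complex I and -0.0085 for complex IV. The means of complexes II, III and V overlapped between the ages. The median differences were -0.03 for each of complexes II, III, IV and V. After median centring they were -0.02 for complex II and -0.01 for each of complexes III, IV and V. Without young array 1 the median of complex II turned to 0.0033 and that of complex III came to -0.0056, and without young array 3 they were -0.07 and -0.05.

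**Figure D4:**
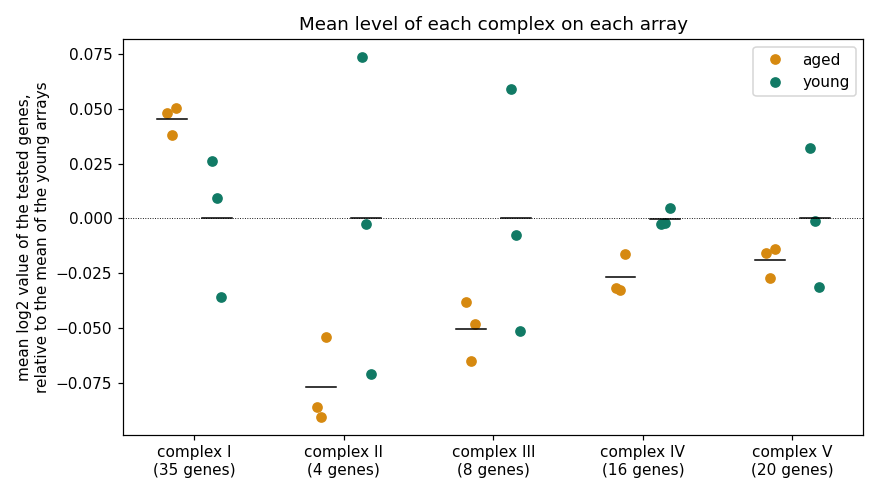
Mean log2 value of the tested genes of each complex on each array, relative to the mean of the young arrays, with aged arrays to the left and young arrays to the right of each pair and the group mean as a line. Genes are grouped by symbol, with Ndufa4 and Ndufa4l2 in complex I and Cox7a2l in complex IV. Aged arrays lie above the young ones in complex I and below them in complex IV, separations that depend on that grouping. The young arrays of complexes II and III spread over the widest range.

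Genes that assemble the chain are no part of the finished complexes, and were described from separate lists. Their counts, and those of the other related lists below, stand beside 18.4% higher and 22.1% lower over all genes tested. Among genes above the negative control range the shares were 21.4% higher and 36.2% lower. Over the related mitochondrial lists together 23 of 129 tested genes were higher and 44 lower, and after median centring 25 were higher and 28 lower. Of 15 tested assembly factors of complex I 5 were higher and 2 lower, of 19 of complex IV 9 were higher and 5 lower, and of 6 of complex III 3 were higher and 1 lower, with median differences of 0.03, 0.13 and 0.10. Cox18, which inserts the mitochondrially encoded subunit COX2 into the membrane, read 8.97, 8.92 and 8.97 in aged cells, against 8.35, 8.41 and 8.26 in young cells, and rose 1.53-fold (adjusted p = 7.59e-06). Lrpprc, which stabilises mitochondrial messenger RNAs, read 9.62, 9.60 and 9.62 in aged cells, against 10.07, 10.12 and 10.11 in young cells, and fell to 71.5% of the young level (adjusted p = 2.71e-06). Bcs1l, which places the Rieske protein in complex III, rose 1.26-fold (adjusted p = 0.000212). Ndufaf5 and Ndufaf3, of complex I, were called higher but dim in both ages, with mean levels of 7.25 in aged and 6.70 in young cells for Ndufaf5 and of 7.54 in aged and 7.01 in young cells for Ndufaf3, so the size of their change is not known. Of the 5 assembly genes of complex V 2 were lower, and of the 3 of complex II 0 passed (limma, with 0 at an unadjusted p under 0.05 and 0 called without moderation).

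Subunits encoded by mitochondrial DNA had a single-gene probe set for ND2, ND3, ND6, COX1 and COX2. ND3 was lower in aged cells, with 12.04, 12.05 and 12.03, against 12.17, 12.11 and 12.33 in young cells (adjusted p = 0.0318), a call lost after quantile normalization and without any single aged array. ND6, the subunit read from the other strand, had 10.40, 10.77 and 10.52 in aged cells, against 10.08, 10.34 and 10.39 in young cells (adjusted p = 0.0519). ND2 and COX1 overlapped between the ages. The COX2 probe set was dim, at 6.19 in aged and 6.15 in young cells. The next lowest mean of these probe sets was 10.27, that of ND6 in young cells. Whether the COX2 probe set reads its transcript well was not tested. Of 11 genes of mitochondrial DNA replication and transcription 4 were lower and 1 higher. Over all genes tested 22.1% were lower and 18.4% higher, and among genes above the negative control range 36.2% were lower and 21.4% higher. Tfb2m, a transcription factor for mitochondrial DNA, read 8.13, 8.11 and 8.05 in aged cells, against 8.77, 8.81 and 8.73 in young cells. It fell to 62.8% of the young level (adjusted p = 2.16e-06).

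Of 14 genes of electron carriers and coenzyme Q synthesis 2 were higher and 4 lower. The largest fall was that of Coq10b, to 77.1% of the young level (adjusted p = 6.19e-05). The largest rise was that of Coq2, 1.20-fold (adjusted p = 0.00105). Cycs, the soluble cytochrome c that connects complexes III and IV, fell to 87.8% of the young level (adjusted p = 0.000981). Of 12 citrate cycle genes 5 were lower and 1 higher. Idh3a, of the NAD-linked isocitrate dehydrogenase, fell to 78.0% (adjusted p = 1.98e-05), and Ogdh, of the oxoglutarate dehydrogenase, rose 1.27-fold (adjusted p = 9.41e-05). Of 20 genes of protein import into mitochondria 10 were lower and 1 higher, with a median difference of -0.12. All 20, like the 12 citrate cycle genes, lay above the negative control range, where 36.2% of genes were lower. Over all genes tested 22.1% were lower. Pmpcb, of the peptidase that removes import signals, fell to 79.4% (adjusted p = 0.000101), and the import chaperone Hspa9 fell to 84.6% (adjusted p = 0.000127). Of 9 regulators of mitochondrial biogenesis 5 were lower and 1 higher. The gene called higher was Ppargc1a, the coactivator PGC-1alpha, dim at 7.46 in aged and 6.76 in young cells. Those called lower were Pprc1 at 83.2% of the young level, Gabpa at 89.8%, Yy1 at 90.7%, Nrf1 and Nrip1 (adjusted p = 0.000808, 0.0126, 0.0187, 0.0436 and 0.0295). Nrip1 was dim in both ages and Nrf1 in aged cells. Any link of these changes to the promoter motifs was not tested. Of 8 carriers of the inner and pores of the outer membrane 4 were lower.

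**Figure D5:**
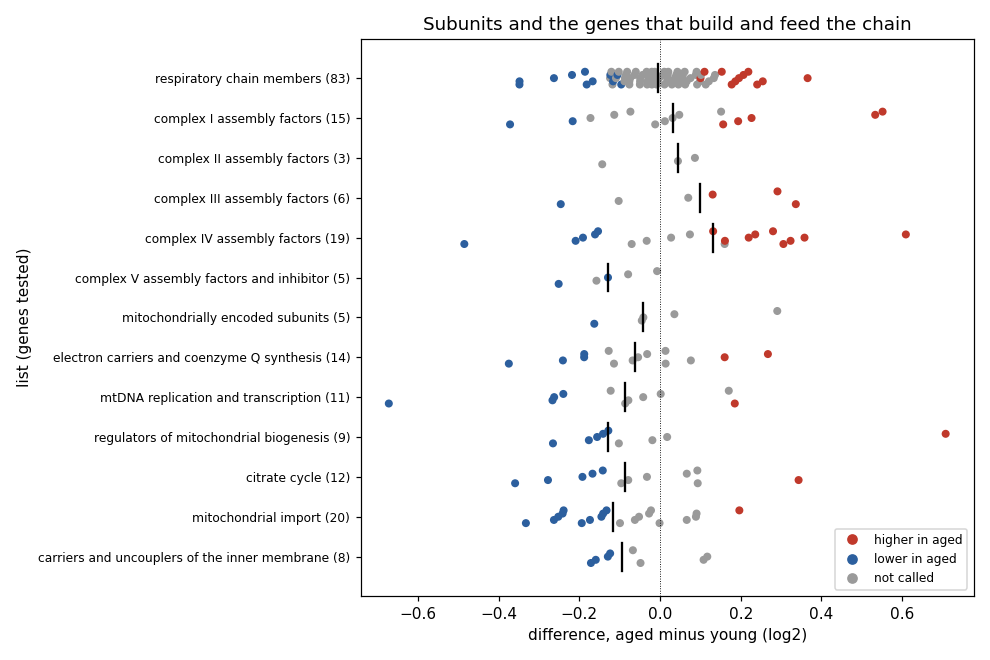
Age difference (log2, aged minus young) of each tested gene of the respiratory chain and of 12 lists of genes that assemble, encode, supply or regulate it; each point is a gene, colour shows the call and the black line is the list's median. The 83 chain genes lie within 0.37 of 0, and points beyond 0.5 in either direction belong to complex I and IV assembly, mitochondrial transcription and biogenesis regulators, of which the 2 of complex I assembly and Ppargc1a are dim in both ages.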

How the data were processed

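Expression was measured on 6 arrays. The deposited log2 values, 1 per probe set and array, were used without further scaling. The submitters' processing notes name MAS5; background correction, summarisation and the genome build are not given in the sources used here. Of 72688 probe sets 31258 had 1 gene after symbols were updated through RefSeq names (assembly GRCm38.p6), and the probe set with the highest mean of 6 arrays stood for each of 30702 genes. Genes with a mean under 5.40, the median of all transcript clusters, were left out.

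Aged and young arrays were compared with limma 3.58.1 in R 4.3.3 (lmFit, eBayes with an intensity trend), with p-values adjusted over all 20187 genes. The number of arrays limits the precision.

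Members and lists were chosen with earlier results of these data known. Values are given for, per complex and direction, up to 4 called genes with the largest difference, all genes of complex II, the 2 brightest genes of each complex, pairs of isoforms and mitochondrially encoded genes. From the related lists only some called genes are named, and these are not always the ones with the largest difference. Other genes were named after their values were seen.

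Other settings left out each array in turn, changed the filter, the probe set rule, the variance model and the scaling (quantile normalization or median centring), regrouped the subunits, set a minimum difference, or took the replicate number as a block.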

Additional observations from a re-analysis of the deposited data

Results flagged for a closer look

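A probe set that carries both Atp5g2 and Gm10231 as names, and so was left out of the comparison, had a signal above the negative control range that was higher on every aged array than on any young one. Its mean was 10.05 in aged and 9.86 in young cells, a difference of 0.20, close to the 0.19 of both single-name probe sets of Atp5g2. The difference of this probe set was not tested. These probe sets may read the same transcripts, so their likeness is no independent support.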

How the results depend on the processing

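No called chain gene changed direction under any setting tried. The 11 higher and 11 lower chain genes became 9 and 7 after median centring, 7 higher with no filter, 7 higher without an intensity trend, and 7 higher with the replicate number as a block, where 6 calls were lost. After quantile normalization they became 14 and 16, with 9 genes gained, while calls over all genes went from 8195 to 8539. Deviations of same-numbered aged and young arrays correlated at -0.05, 0.07 and 0.02, and those of other pairs at -0.08 to 0.04. With so few arrays these values cannot tell whether same-numbered arrays were prepared together. With single arrays left out 6 to 18 were higher and 7 to 17 lower. Against a minimum difference of 0.3, 0 chain genes were higher and 0 lower, while 1985 genes passed in all, 1169 higher and 816 lower, of 8195 (3724 and 4471) with no minimum, and of the related lists 3 were higher and 2 lower in place of 23 and 44. Median centring gave 28 lower in the related lists. It set the median difference of the chain at 0.0136 in place of -0.00608, of complex I at 0.0566, of complex IV at -0.00679 and of complex V at -0.0124. With arrays left out the median of complex I ran from 0.0180 to 0.0579 and that of complex IV from -0.0279 to -0.0190. With structural subunits only, complex IV had a median of -0.00849. The cause of these changes was not tested. Dim genes, 12 of the 83 in at least 1 age, have levels within the range of negative controls, so their differences say little of the true ratio.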

Other observations

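Genes that start head to head within 500 bases of a chain gene moved with it in some pairs and against it in others. The rise of Ndufa4 stood beside Phf14, which differed by -0.22 (adjusted p = 0.00168), and Sdha, which rose, stood beside Ccdc127 at -0.07 (adjusted p = 0.248). Among the genes that were lower, Atp5f1 stood beside Wdr77 at -0.32 (adjusted p = 0.000126), Atp5md beside Pdcd11 at -0.38 (adjusted p = 2.68e-05) and Uqcrh beside Lrrc41 at -0.02 (adjusted p = 0.771).

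Probe sets that cover several mitochondrial genes at once gave overlapping groups. That of ATP6, ATP8 and COX3 averaged 13.37 ± 0.07 in aged and 13.35 ± 0.11 in young cells, and that of CYTB and ND5 averaged 13.50 ± 0.05 in aged and 13.52 ± 0.07 in young cells (SD, n = 3 each).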
